A study of Mus musculus with 36 samples.

Results

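The cytosolic ribosomal proteins described here are the 90 genes whose mouse symbols follow the pattern Rpl or Rps with a number, Rplp with a number, or Rpsa, out of 16060 genes in any of the 6 gene tables. Pseudogenes with -ps in their symbol and the Rps6k kinases were left out. The rule took in 77 genes of the standard ribosome, 46 for the large and 31 for the small subunit. It also took in 6 second genes for a ribosomal protein (paralogs), 6 intron-poor copies (retrocopies), and Rps19bp1, which encodes a protein that binds Rps19 and is not itself a ribosomal protein. All 77 standard genes were in every table. The 3 members Rpl3l, Rpl39l and Rps12l1 were in the fat tables but not in the liver tables, which left 87 members in liver and 90 in fat.

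The ribosome's large subunit joins amino acids and its small subunit reads the mRNA, and the RNA of both is assembled with about equal amounts of each ribosomal protein. Transcription of these genes is broadly shared across tissues, and their mRNAs carry a pyrimidine-rich start, the 5′ terminal oligopyrimidine (TOP) motif, through which the nutrient-sensing kinase complex mTORC1 controls their translation. mRNA levels therefore do not report how much ribosomal protein was made, and no protein or translation was measured here. In liver, ribosome production is known to follow feeding.

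The mice were C57BL/6J, sampled after 16 weeks on 1 of 3 diets, and total RNA of the liver and of inguinal white adipose tissue (iWAT), which lies under the skin of the groin, was sequenced. Controls were fed ad libitum (AL), the second group was calorie-restricted (CR), and the third was time-restricted without calorie restriction (TR, labelled TR.al). With 3 diets and 2 tissues there were 6 groups of 6 libraries, 36 in all. No transgene or drug is named in the labels, and no source used here gives their age, sex or sampling time. Of the label animal numbers, 24 stands on both a CR and a TR label. What was used here is 1 fitted comparison per table (CR minus AL, TR minus AL and CR minus TR in each tissue). The comparisons of CR and of TR with AL rest on the same AL libraries, so that their values are given side by side and are not independent of each other.

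Each tissue held the markers of its label. All 9 hepatocyte markers were in the liver tables, with log2 mean CPM (CPM, read counts scaled to library size) of 10.12 to 16.47 for CR minus AL, and all 8 adipocyte markers were in the iWAT tables, at 8.01 to 13.55. The iWAT tables also held RNA of other tissues, with medians that differed between the diet groups. In CR minus AL the log2 mean CPM of hepatocyte markers in iWAT reached 8.74 and that of skeletal muscle markers 10.4. In TR minus AL the hepatocyte markers reached 11.5. These levels overlap those of the adipocyte markers. The 9 hepatocyte markers had a median log2 fold change of -3.83 for CR minus AL and 2.19 for TR minus AL, and the 10 skeletal muscle markers had medians of 1.17 and -2.89. Past the FDR were 7 of 9 and 0 of 9 hepatocyte markers, and 0 of 10 and 4 of 10 muscle markers. Whether these differences rest on a few libraries cannot be told from fitted comparisons. In liver, the 8 Kupffer cell markers had medians of -0.30 for CR and -0.52 for TR. The cholangiocyte markers had medians of 0.74 over 5 markers (Spp1 and Krt19 past the FDR) and 0.82 over 4 (Epcam and Krt19 past the FDR). The part of these cell types in the members' liver values was not tested. Values per library are not in the authors' deposited tables, so that depth is unknown here and no spread per group can be given. An approximate standard error (SE) was computed by dividing each absolute log2 fold change by the root of the authors' likelihood-ratio statistic, and approximate 95% intervals take that SE as normal. In bulk RNA, a change in the number of cells of a type and a change in RNA per cell cannot be told apart.

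Windows around the annotated starts of a few members hold pyrimidine runs, the kind of sequence that gives these mRNAs their name. The windows below were taken from RefSeq's promoter table (GRCm38.p6), which held 66 of the 90 members, and run from 40 bases before to 20 bases after an annotated start, on the gene's own strand. Capitals mark the pyrimidine tract, a run of at least 7 bases that are C or T, beginning with C, on the given strand only, and starting between 10 bases before and 40 bases after the annotated start. The first is Rpl22l1, the member with the smallest FDR in liver, at chr3:28805468-28805527 on the plus strand, and Rpl27a follows at chr7:109519155-109519214 on the plus strand. Rpl35 lies at chr2:39005112-39005171 on the minus strand, Rpl38 at chr11:114668540-114668599 on the plus strand and Rps12 at chr10:23787190-23787249 on the minus strand, all 3 past the FDR in a liver comparison. Rps6, the substrate of the S6 kinases that mTORC1 activates, lies at chr4:86857348-86857407 on the minus strand and is shown as a member that did not pass.
Rpl22l1: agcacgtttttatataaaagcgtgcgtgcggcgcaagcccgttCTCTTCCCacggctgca
Rpl27a: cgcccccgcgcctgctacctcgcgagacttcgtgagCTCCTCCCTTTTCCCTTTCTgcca
Rpl35: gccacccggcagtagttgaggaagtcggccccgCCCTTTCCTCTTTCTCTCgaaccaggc
Rpl38: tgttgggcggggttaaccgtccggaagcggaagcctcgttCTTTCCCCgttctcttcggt
Rps12: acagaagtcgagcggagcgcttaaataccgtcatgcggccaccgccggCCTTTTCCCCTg
Rps6: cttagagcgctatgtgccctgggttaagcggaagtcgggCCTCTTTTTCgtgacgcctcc
Such a tract was found in 45 of the 66 members (68.2%) and in 40 of the 57 standard genes with a window (70.2%), against 26.0% of the 27025 symbols in the table. The tract of Rpl27a is 20 bases long and that of Rpl35 is 18, while those of Rpl22l1 and Rpl38 have 8. Of the tracts shown, only that of Rpl38 begins at the annotated first base. Those of Rpl27a, Rpl35 and Rps6 begin before it, at positions -4, -7 and -1, and run across it. Those of Rpl22l1 and Rps12 begin after it, at positions 4 and 9, and are not shown to be terminal. A match is a description of the letters and not a measured start. In liver CR minus AL, the median log2 fold change was 0.27 for the 40 with a tract and 0.25 for the 17 without, and in liver TR minus AL it was 0.28 and 0.24.

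In the liver of calorie-restricted mice, 6 of the 87 members were higher than in AL at an FDR under 0.05 (the authors' edgeR likelihood-ratio test with Benjamini-Hochberg adjustment over all genes) and 0 were lower. Among all genes tested, 5.79% of genes were higher and 5.37% lower, so that the 6.90% of members called higher lie close to that background. As a list, the members lay slightly above 0. Their median log2 fold change was 0.25 (1.19-fold) against -0.004 for all 12636 genes, and 86 of 87 members lay above 0, compared with 49.5% of all genes. The lower and upper quartiles of the members were 0.19 and 0.30. The median approximate SE of a member was 0.13, so that most members' own intervals reached 0 or came near it, and 39 of 87 had an unadjusted p under 0.05, against 22.8% of all genes.

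The 6 members that rose all belong to the large subunit or its paralogs. Rpl22l1 (ENSMUSG00000039221, chr3:28805436-28807424, 4 exons), the paralog of the RNA-binding protein Rpl22, rose by 0.80 log2 units (1.74-fold, SE 0.14, FDR 1.1e-06) in the authors' deposited table for liver CR minus AL. Rpl27a (ENSMUSG00000046364, chr7:109519147-109522367), a standard large-subunit protein with the longest tract of those shown, rose by 0.41 (1.33-fold, SE 0.10, FDR 0.0020). The other 4 lay within a narrow band just past the threshold. Rpl39, which lines the exit tunnel for the growing peptide, rose by 0.34 (FDR 0.036). Rpl36al, the second gene for the Rpl36a protein, rose by 0.32 (FDR 0.034). Rpl38, known from mouse mutants for its part in translating Hox mRNAs, rose by 0.32 (FDR 0.040). Rpl12, which sits at the base of the ribosomal stalk, rose by 0.31 (FDR 0.047). Only Rps4l, a retrocopy of Rps4x, had a value below 0, at -0.33 (SE 0.33, FDR 0.61) in the authors' deposited table.

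**Figure D1:**
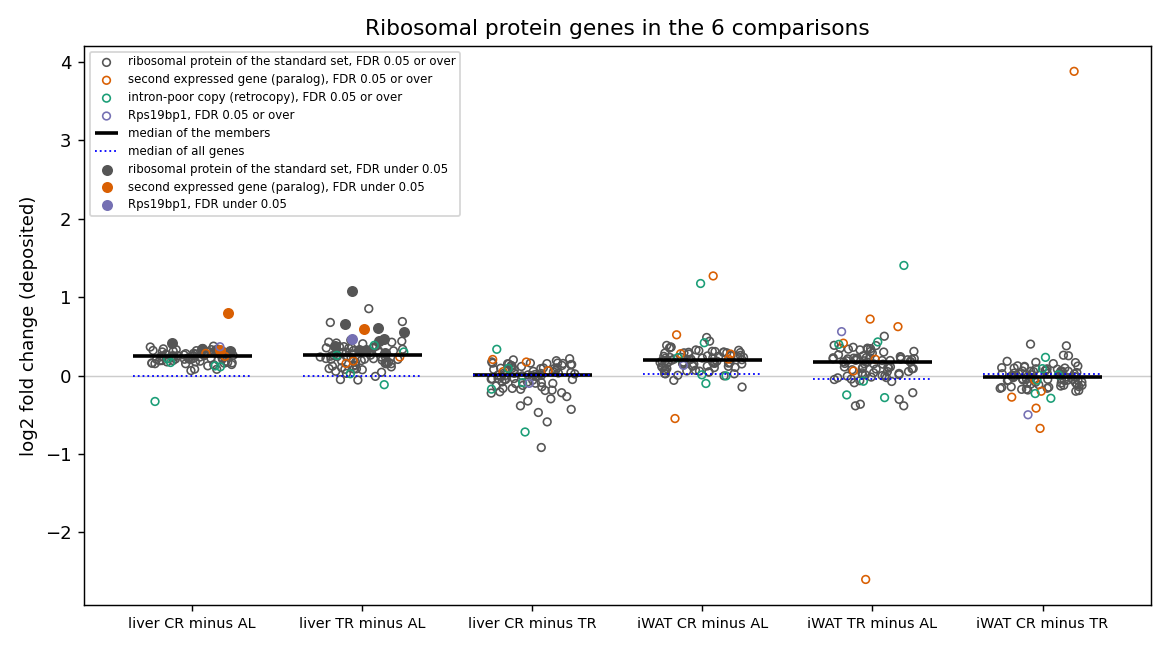
Deposited log2 fold change of every member (points) in the 6 comparisons, coloured by class, with filled points for an FDR under 0.05. Black bars are the members' medians and dotted bars those of all genes: in liver the members sit at medians of 0.25 and 0.26 against AL and at 0.003 for CR minus TR, and the far points in iWAT are Rpl3l at 1.27, -2.60 and 3.88.

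In the liver of time-restricted mice, 12 of the 87 members were higher than in AL at the same threshold and 0 were lower, where 9.35% of all 12691 genes were higher and 9.54% lower. The share of members called higher was 13.8%, and its distance from the background was not tested. The members' median was 0.26 against -0.001 for all genes, and 83 of 87 lay above 0. The members were spread more widely here than in CR minus AL, with a standard deviation across members of 0.19 against 0.11. An unadjusted p under 0.05 was reached by 44 of 87 members and by 30.8% of all genes.

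Of the 12 members that rose in TR, 10 were standard ribosomal proteins, 7 of the large and 3 of the small subunit. Rpl22l1 rose by 0.59 (1.51-fold, SE 0.14, FDR 0.00027) in the authors' deposited table for liver TR minus AL, and Rpl27a by 0.32 (SE 0.11, FDR 0.026). Both also passed in CR minus AL, with the AL libraries shared between these comparisons. The share of all genes that were higher for both diets was not counted, so this overlap has no background beside it. Rpl36 (ENSMUSG00000057863, chr17:56613416-56614243) had the highest value, 1.08 (2.11-fold), but also the widest error of any member in this comparison (SE 0.39, FDR 0.034). The interval of Rpl36 ran from 0.32 to 1.84, whereas in CR minus AL its value was 0.16 (SE 0.32, FDR 0.82).

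Of the small-subunit genes, Rps21 rose by 0.66 (SE 0.23, FDR 0.026) in the authors' deposited table. Rps15, a protein of the 40S head near the decoding site, rose by 0.61 (SE 0.20, FDR 0.021). Rps12 rose by 0.46 (SE 0.16, FDR 0.022). These 3 had values between 0.23 and 0.31 in CR minus AL, none of which passed. Rps19bp1, also known as active regulator of SIRT1, rose by 0.47 (SE 0.14, FDR 0.0078) and had 0.37 (FDR 0.091) in CR minus AL.

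The remaining 5 genes belong to the large subunit. Rpl29, a basic protein that binds heparin outside the ribosome, rose by 0.55 (SE 0.21, FDR 0.044) in the authors' deposited table for liver TR minus AL. Rpl35, located at the tunnel exit, rose by 0.44 (SE 0.13, FDR 0.0088). Rpl13 rose by 0.38 (FDR 0.037), Rpl37a by 0.32 (FDR 0.048) and Rpl34 by 0.29 (FDR 0.044). In CR minus AL these 5 had values of 0.23 to 0.35 and FDR above the threshold, with both diets' intervals overlapping for each gene. Conversely Rpl39, Rpl36al, Rpl38 and Rpl12, which rose in CR, had values of 0.15, 0.15, 0.30 and 0.32 in TR minus AL without passing. When the values were recentred on the median of genes with a log2 mean CPM of 7 or more, 2 members passed in CR minus AL (Rpl22l1 and Rpl27a) and 5 in TR minus AL (Rpl22l1, Rps19bp1, Rpl35, Rps15 and Rpl36). For each of these genes, the diets are set against each other directly in CR minus TR.

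**Figure D2:**
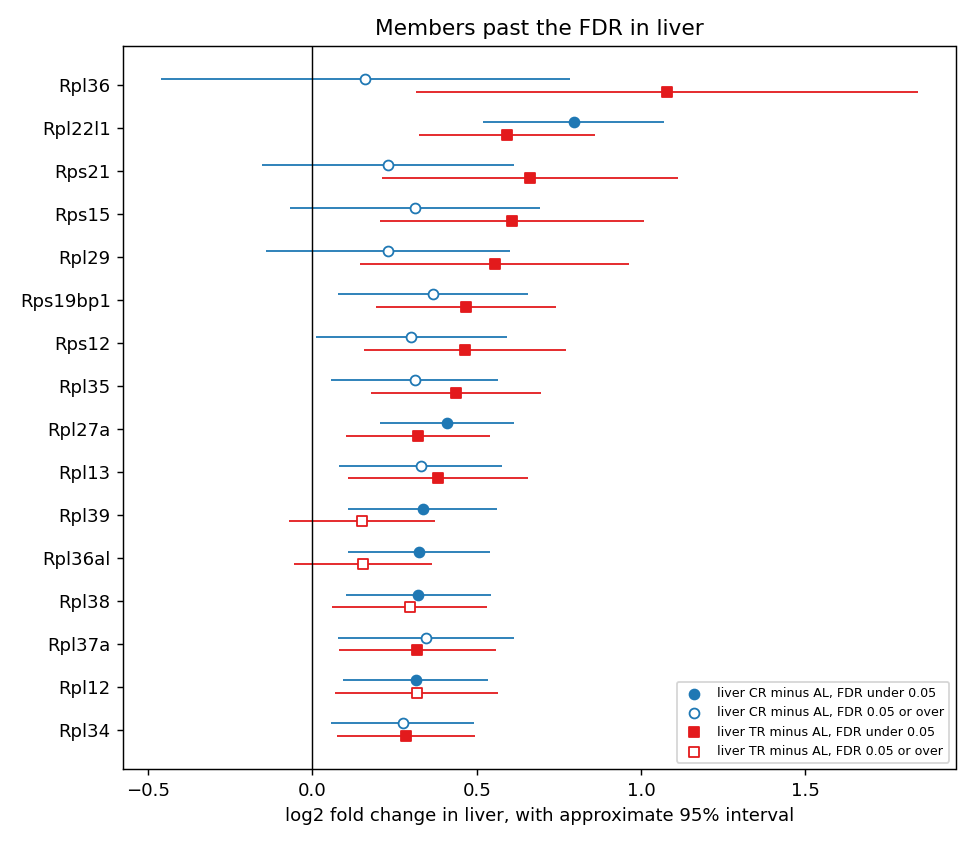
Log2 fold change in liver (horizontal axis) with approximate 95% intervals for the 16 members past the FDR in either comparison with AL. Circles are CR minus AL, squares TR minus AL, and filled symbols have an FDR under 0.05: Rpl36 has the widest intervals, and the 2 intervals of every gene overlap.

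When the restricted diets were set against each other in liver, 0 of 87 members passed in either direction in the authors' edgeR test, where 0.159% of all 12593 genes were higher in CR and 0.31% lower. An unadjusted p under 0.05 was reached by 8 members and by 1263 genes in all. The median was 0.003 against 0.007 for all genes, 45 of 87 members lay above 0, and 72 had an interval that lay wholly within 0.5 log2 units of 0. The lowest value was that of Rpl36, at -0.92 (SE 0.29, FDR 0.12) in the authors' deposited table for liver CR minus TR. Rps27rt, a retrocopy of Rps27, had the highest, at 0.33 (SE 0.27).

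The members were also grouped by position in the ribosome. Group medians in liver TR minus AL ranged from 0.69 for the 3 stalk proteins to 0.04 for 3 proteins grouped under the peptidyl transferase centre (Rpl3, Rpl10 and Rpl4). In CR minus AL the order differed and the range was narrower, with 0.25 for the stalk and 0.17 for that centre, a highest median of 0.31 for 7 proteins of the exit tunnel and its surface, and a lowest of 0.14 for the 2 proteins of the 5S particle. The tunnel group had 0.22 in TR minus AL. The acidic stalk proteins Rplp1 and Rplp2, which recruit translation factors, had 0.85 (SE 0.34, FDR 0.057) and 0.69 (SE 0.30, FDR 0.089) in liver TR minus AL and 0.26 and 0.22 in CR minus AL, none of them past the FDR. Rplp0, the stalk's anchor, had 0.30 and 0.25. Lower values were those of Rpl5, which with Rpl11 and the 5S rRNA forms the particle that binds Mdm2. Rpl5 had -0.06 (SE 0.12) in TR minus AL and 0.08 (SE 0.12) in CR minus AL, and Rpl11 had 0.24 and 0.19. Rpl3 and Rpl10, placed near the peptidyl transferase centre, had -0.05 and 0.26 in TR minus AL and 0.06 and 0.25 in CR minus AL. The medians of that group, 0.04 and 0.17, are the values of Rpl4 alone. Rps6 had 0.11 in TR minus AL and 0.18 in CR minus AL. Rps27a, which is made as a fusion with ubiquitin, had 0.08 and 0.25 in the authors' deposited tables.

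Both subunits lay above 0 in liver. The 46 standard large-subunit genes had medians of 0.25 for CR and 0.28 for TR, and the 31 small-subunit genes had 0.24 and 0.21. In CR minus AL, 4 of 46 large-subunit (8.70%) and 0 of 31 small-subunit genes rose, where 5.79% of all genes did. The smallest FDR of a small-subunit gene there was 0.056, just past the threshold. In TR minus AL 7 (15.2%) and 3 (9.68%) rose, where 9.35% of all genes did. At an unadjusted p under 0.05 in the authors' edgeR test, the counts in CR minus AL were 22 of 46 and 12 of 31. Among all genes 22.8% reached it. The difference between subunits was not tested, since genes are not replicates. Ribosomal proteins whose symbols fall outside the rule had values above 0 as well. Fau, a fusion of a ribosomal protein with a ubiquitin-like protein, had 0.21 for CR and 0.53 for TR (FDR 0.082), and Rack1, a scaffold on the 40S head, had 0.22 and 0.24 in the authors' deposited tables.

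Of the paralogs, Rpl22l1 stood farthest from its standard partner in liver. In the authors' deposited tables Rpl22 had 0.08 (SE 0.10, FDR 0.71) in CR minus AL and -0.01 (SE 0.10, FDR 0.96) in TR minus AL, while Rpl22l1 had 0.80 and 0.59. The approximate intervals of this pair did not overlap in either comparison, at 0.52 to 1.07 against -0.12 to 0.28 in CR and 0.33 to 0.86 against -0.20 to 0.18 in TR. In knockout mice, Rpl22 is known to repress Rpl22l1. Rps27l, known as a p53 target, had 0.28 (FDR 0.056) beside 0.30 for Rps27 in CR minus AL, and 0.24 beside 0.08 in TR minus AL. Rpl36al had 0.32 beside 0.28 for Rpl36a, and Rpl7l1, a protein of nucleolar ribosome assembly, had 0.24 beside 0.15 for Rpl7. The retrocopies Rps4l and Rps27rt were at a log2 mean CPM of 1.82 and 1.58, beside 8.20 for Rps4x and 6.97 for Rps27, on a scale that is not per length. Their intervals were wide and spanned 0 in both comparisons with AL. In CR minus TR, Rps4l had -0.72 (SE 0.29), with an interval below 0 but without passing the FDR.

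**Figure D3:**
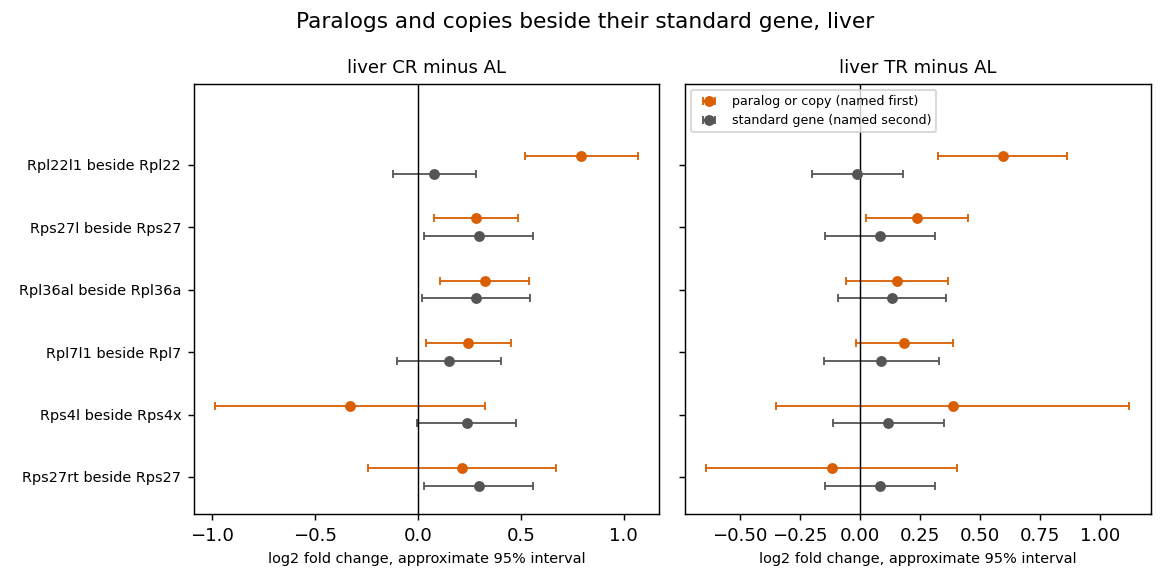
Log2 fold change with approximate 95% intervals for 6 paralogs or retrocopies (orange) beside their standard gene (grey) in liver, CR minus AL on the left and TR minus AL on the right. The intervals are apart for Rpl22l1 and Rpl22 and overlap for the other 5 pairs.

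At the transcript level, few of the members' isoforms passed. In the authors' deposited transcript table for liver CR minus AL, 2 of 307 member transcripts were higher, both of Rpl22l1, where 1.45% of all transcripts were. The transcript of 525 nt (ENSMUST00000194649) rose by 0.79 (SE 0.21, FDR 0.010) and one of 552 nt (ENSMUST00000043867) by 1.03 (SE 0.30, FDR 0.030). In liver TR minus AL, 2 of 309 were higher (1.96% of all), namely a 1158 nt transcript of Rpl27a (ENSMUST00000143107) by 0.69 (FDR 0.0034) and a 487 nt transcript of Rpl31 (ENSMUST00000178079) by 0.54 (FDR 0.017). In liver CR minus TR, a 464 nt transcript of Rpl13a (ENSMUST00000210792) was higher by 0.72 (FDR 0.026) and a 494 nt transcript of Rps12 (ENSMUST00000220070) by 0.72 (FDR 0.036), 2 of 306 where 0.157% of all were. The gene-level values of Rpl13a and Rps12 in that comparison were -0.04 and -0.16. In iWAT TR minus AL, a 695 nt transcript of Rpl41 (ENSMUST00000176184) fell by 7.93 (SE 2.19, FDR 0.014) at a log2 mean CPM of -0.65, the single member transcript of 355 that was lower (1.52% of all were), and Rpl41 as a gene had -0.0014. Reads of these genes are hard to assign. Over their annotated transcripts, the median standard gene shared 59.9% of its 50-base stretches with transcripts of other genes and Rps27 98.6%, and for the retrocopies the median was 83.3%. How the authors' quantification divided such reads can move single members, and was not tested.

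In iWAT, 0 of 90 members passed the FDR for either diet. In CR minus AL, 3.52% of all 15295 genes were higher and 3.78% lower, and in TR minus AL 4.76% of 15356 were higher and 5.24% lower. At an unadjusted p under 0.05 there were 1 member for CR (19.7% of all genes) and 3 for TR (23.0% of all genes), in the authors' edgeR test. The medians were nonetheless above 0, at 0.19 in CR minus AL (0.02 for all genes) and 0.17 in TR minus AL (-0.04 for all genes), and 84 and 70 of 90 members lay above 0. In CR minus TR, 0 of 90 passed with 1 at an unadjusted p under 0.05, where 0.0612% of all genes were higher and 0.857% lower, and the median was -0.02.

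These intervals were wide. The median approximate SE of a member was 0.36 for CR and 0.34 for TR against AL in iWAT, and 0.13 and 0.12 in liver, and no member had an interval wholly within 0.5 log2 units of 0. A displacement of the size seen in liver was therefore not detectable for a single gene in iWAT. The member nearest the threshold was Rpl7l1, with 0.72 (SE 0.27, FDR 0.072) in TR minus AL and 0.52 (SE 0.23, FDR 0.17) in CR minus AL. Rps27l had 0.62 (SE 0.28, FDR 0.15) in TR minus AL, beside 0.21 for Rps27. Among the standard genes Rpl7a, a large-subunit protein, had the highest value in both, 0.49 and 0.50. Rplp2 was lowest in CR minus AL at -0.15, and Rplp1 in TR minus AL at -0.39 (SE 0.40). Rpl22l1 had 0.21 for both diets (SE 0.28 for CR and 0.30 for TR), beside 0.07 and 0.05 for Rpl22.

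The largest values in iWAT belonged to members that were rare in this tissue. Rpl3l, the paralog that replaces Rpl3 in skeletal muscle and heart, had 1.27 (SE 1.50, FDR 0.68) in CR minus AL, -2.60 (SE 1.18, FDR 0.15) in TR minus AL and 3.88 (SE 1.67, FDR 0.78) in CR minus TR, per the authors' deposited tables. Rpl3 itself had 0.31, 0.33 and -0.08. The skeletal muscle markers moved in the same directions. Their medians were 1.17, -2.89 and 4.06, with 0 of 10, 4 of 10 (all lower) and 2 of 9 (both higher) past the FDR. The myosin gene Myh1 had 0.93, -6.06 and 6.98. The part of muscle RNA in the values of Rpl3l was not tested. Rpl39l, known from male germ cells, had -0.55 (SE 0.48) and 0.06 (SE 0.53) at a log2 mean CPM under 2, and the retrocopy Rps12l1 had 1.17 (SE 0.71) and 1.40 (SE 0.78) at a log2 mean CPM of -0.33 and -0.21. The hepatocyte markers also differed between the iWAT groups, with 7 of 9 lower in CR minus AL, 0 of 9 past the FDR in TR minus AL and 9 of 9 lower in CR minus TR, and the macrophage markers had medians of -0.65 and -0.74. The 10 T and B lymphocyte markers all lay above 0 in both comparisons with AL, with medians of 1.10 for CR and 0.84 for TR and 0 past the FDR, the same direction as the members' medians. The part of these cell types in the members' values was not tested.

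The tissues were compared by subtracting the liver from the iWAT log2 fold change and dividing by the root of the summed squared SE. With Benjamini-Hochberg adjustment, 0 of 87 members differed between tissues for CR minus AL (6.73% of all 12012 genes did) and 0 of 87 for TR minus AL (7.81% of 12201). This takes the tissues as uncorrelated, although 16 of the 20 mice, by diet and animal number, gave both. With a correlation of 0.3 between tissues, 2 members passed for TR and 0 for CR. At an unadjusted p under 0.05 the counts were 0 and 5, where 18.5% and 20.1% of all genes reached it, so that the members differed between tissues in smaller shares than genes overall. The median difference was -0.05 for both diets, and a member's interval reached, at the median, 0.75 to each side for CR and 0.72 for TR, so that differences between tissues of the size of the liver displacement could not be seen. The 5 members at an unadjusted p under 0.05 were Rpl36, Rplp1, Rps29, Rps21 and Rplp2, all with values above 0 in liver and below 0 in iWAT for TR minus AL. Rpl36 differed by -1.44 (approximate interval -2.55 to -0.34, adjusted p 0.098), Rplp1 by -1.24 (adjusted p 0.14) and Rps29 by -1.06 (adjusted p 0.18). The CR minus AL values of these 5 in liver were 0.16 to 0.29.

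Those 5 genes have short transcripts, between 383 and 499 nt for the most abundant one, with a GC content of 52.5% to 60.8%, against a median of 52.4% for the standard genes. Other standard genes are similar in both and are not among the 5, such as Rpl41 (437 nt, 56.3%) and Rps28 (382 nt, 53.9%), which had 0.45 and 0.42 in liver TR minus AL. In liver TR minus AL they hold the 5 highest values of the standard genes, which enter the difference between tissues, and their approximate SE of 0.23 to 0.39 exceeded the members' median of 0.12. Across the 77 standard genes, the log2 fold change in liver TR minus AL was higher at higher GC content (Pearson r 0.62, Spearman rho 0.64), and in CR minus TR it was lower (r -0.59). The relation was weak in liver CR minus AL (r 0.09), and in iWAT TR minus AL it was negative (r -0.32). Genes outside the rule had r of 0.19 in liver TR minus AL, -0.30 in CR minus TR, 0.05 in CR minus AL and 0.15 in iWAT TR minus AL. These correlations are over genes of the same libraries, which are not independent. The 19 members with a GC content of 55% or more had a median of 0.41 in liver TR minus AL, against 0.15 for the 2770 genes outside the rule in that range. The part of GC content in these values was not tested.

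**Figure D4:**
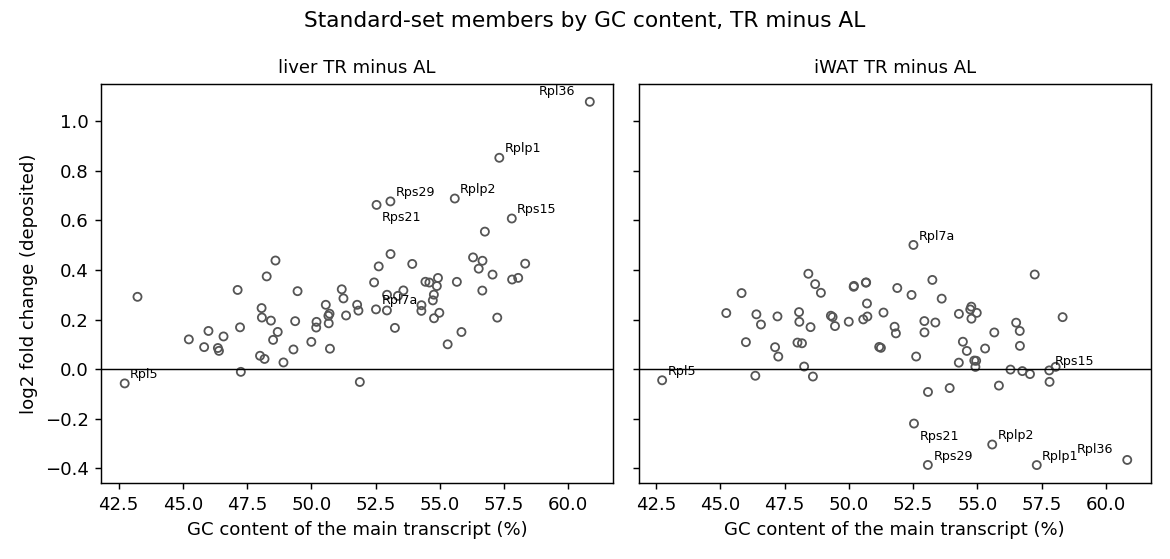
Deposited log2 fold change of the 77 standard genes for TR minus AL against the GC content of their most abundant transcript, in liver (left) and iWAT (right). The highest liver values, Rpl36 at 1.08 and Rplp1 at 0.85, lie at high GC content, and the same genes are among the lowest in iWAT, at -0.37 and -0.39.

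Transcript length moved with the liver displacement too. The members' most abundant transcripts had a median length of 729 nt, against 2845 nt for genes outside the rule. Short genes outside the rule were also displaced upward. Genes outside the rule with transcripts under 600 nt had a median of 0.20 in liver CR minus AL, those from 600 to under 1000 nt 0.13, those from 1000 to under 2000 nt 0.03 and longer ones -0.03. The members in the first 3 of these ranges had 0.28, 0.23 and 0.21. In liver TR minus AL the genes outside the rule had 0.22, 0.13, 0.04 and -0.03, and the members 0.26, 0.26 and 0.23 in the first 3. In iWAT the order was the other way for most of these ranges. For TR minus AL the genes outside the rule had 0.34, 0.33 and 0.20 in the first 3 ranges and the members 0.17, 0.19 and 0.15. For CR minus AL they had 0.27, 0.22 and 0.13 and the members 0.18, 0.19 and 0.21, so that the members were higher only from 1000 to under 2000 nt. Abundant genes outside the rule (log2 mean CPM of at least 6) had medians of 0.05 and 0.01 in liver and 0.09 and 0.14 in iWAT. In iWAT the members' own median log2 mean CPM was 8.39 for CR and 8.36 for TR. Genes outside the rule at 8 or more had medians there of 0.18 and 0.30, close to the members' 0.19 for CR and above their 0.17 for TR. In liver, where the members' median level was 7.05 and 7.15, genes at 7 or more had 0.08 and 0.05, below the members' 0.25 and 0.26. The part of transcript length and of the scaling between libraries in the members' displacement was not tested. The 20 pseudogenes with -ps in their symbol, which the rule left out, had medians of 0.31 and 0.33 in liver.

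**Figure D5:**
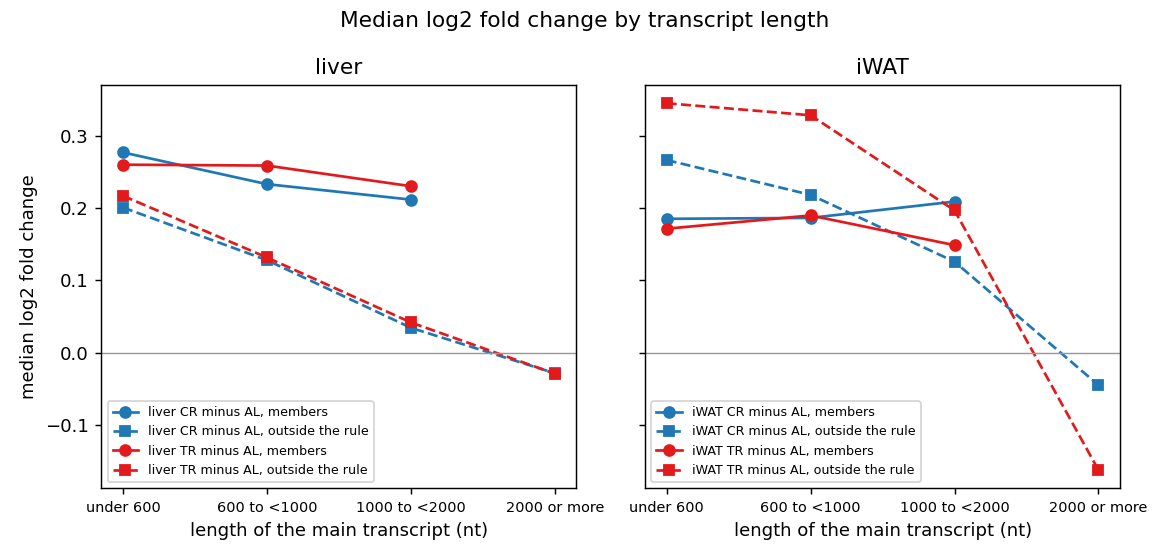
Median log2 fold change by length of the most abundant transcript for the members (solid, ranges with at least 10 genes) and for genes outside the rule (dashed), CR minus AL in blue and TR minus AL in red. In liver the members exceed the other genes in each range shown, by 0.28 against 0.20 for CR under 600 nt, while in iWAT the members lie below the other genes in each range shown except CR from 1000 to under 2000 nt.

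The machinery that builds ribosomes was also measured. Of 48 measured ribosome assembly genes, 5 were higher (10.4%, against 5.79% of all genes) and 0 lower in liver CR minus AL, with a median of 0.14. In liver TR minus AL 15 were higher (31.2%, against 9.35%) and 1 lower, with a median of 0.21. Nip7, which acts in 60S assembly, rose by 0.53 (FDR 0.011) in CR and 0.61 (FDR 0.00038) in TR in the authors' deposited tables. Tsr1, which checks the maturing 40S subunit, rose by 0.45 (FDR 0.020) and 0.53 (FDR 0.00086), and Rrs1, part of the 5S particle's assembly, rose by 0.74 in TR (FDR 0.00087). Nop16 rose by 0.45 in CR (FDR 0.0050). Dkc1, the pseudouridine synthase of rRNA, was the gene that fell, by 0.34 in TR (FDR 0.042). Of 15 genes of RNA polymerase I and its factors, 1 was higher in CR (6.67%, near the background), namely Polr1d by 0.32 (FDR 0.022), and 3 were in TR (where 9.35% of all genes were). In TR, Polr1b rose by 0.36 (FDR 0.040), Polr1a by 0.33 (FDR 0.046) and Taf1c by 0.85 (FDR 0.041). In iWAT, 3 of 48 assembly genes were higher in TR minus AL (6.25%, near the 4.76% of all genes), namely Nop2 by 0.89 (FDR 0.023), Bysl by 0.88 (FDR 0.035) and Nop10 by 0.78 (FDR 0.046), and 0 passed in CR minus AL, with 4 at an unadjusted p under 0.05.

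Other mRNAs with a TOP start were also looked at in liver. Of 22 translation factors and related TOP genes, 0 were higher in either comparison with AL. Among all genes 5.79% were higher in CR and 9.35% in TR. At an unadjusted p under 0.05 in the authors' edgeR test there were 3 and 4, where 22.8% and 30.8% of all genes reached it. The medians were 0.10 in CR and 0.01 in TR. Hnrnpa1, an RNA-binding protein, fell by 0.46 in TR (FDR 6.4e-05) in the authors' deposited table. It was the 1 gene of the list called lower there (4.55%, against 9.54% of all genes). Among 25 initiation factors 1 was called, Eif5, the GTPase activator of the start-codon step, which fell by 0.33 in CR (FDR 0.048) and by 0.52 in TR (FDR 0.00050). That is 4% of the list, where 5.37% of all genes were lower in CR and 9.54% in TR. Of the 10 snoRNA host genes, whose transcripts also start with a TOP motif, Zfas1 rose by 0.46 in liver TR minus AL (FDR 0.036). That is 10% of the list, near the 9.35% of all genes.

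Of 22 regulators of mTORC1 and of TOP mRNAs, 2 were higher in liver CR minus AL (9.09%, against 5.79% of all genes) and 0 lower. In liver TR minus AL 1 was higher (4.55%, against 9.35%) and 4 were lower (18.2%, against 9.54%). The distance of these few genes from the background was not tested. Ddit4, an inhibitor of the complex, rose by 1.07 in CR (FDR 0.0015) and by 0.67 in TR (FDR 0.017). Mtor, its kinase, fell by 0.41 in TR (FDR 0.0012), as did the activator Rheb, by 0.33 (FDR 0.014), and the inhibitor Sesn1, by 0.41 (FDR 0.010). Cnbp, an RNA-binding protein that acts on TOP mRNAs, rose by 0.32 in CR (FDR 0.030). In iWAT 1 gene was called, the arginine sensor Castor1, which fell by 1.28 in CR (FDR 0.0064) and by 1.29 in TR (FDR 0.029). That is 4.55% of the list, where 3.78% of all genes were lower in CR and 5.24% in TR. Of 15 genes of ribosomal protein handling and ribosome quality control, 2 were lower in liver for each diet. That is 13.3%, against 5.37% of all genes in CR and 9.54% in TR. In TR 1 was higher (6.67%, against 9.35%). Mdm2, the p53 ligase bound by Rpl5 and Rpl11, fell in liver by 0.41 in CR (FDR 0.0094) and 0.38 in TR (FDR 0.0071). Pdcd2l, a protein linked to 40S export, fell by 0.50 (FDR 0.010) and 0.54 (FDR 0.0027), and Zfp598, a sensor of collided ribosomes, rose by 0.46 in TR (FDR 0.038). In iWAT Nap1l1, a histone chaperone, fell by 1.39 in CR (FDR 4.9e-05) and by 1.59 in TR (FDR 3.1e-05), in the authors' deposited tables.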

How the data were processed

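Trizol RNA went into Illumina TruSeq libraries, per the labels' protocols. Per the submitters' processing notes, bcl2fastq 2.20, STAR 2.5.3a, RSEM (version not given in the sources used here) and GRCm38.p5 were used. Per the file headers, the authors fitted edgeR generalized linear models; no source used here gives their version, filter or normalization. On the log2 scale the authors deposited a fold change and a mean CPM. The score values are the authors' likelihood-ratio statistics, per the file headers. The authors also deposited a p-value and an FDR for each gene.

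The tables were used as deposited. The design had planned count models, but the tables hold only comparisons, so the authors' FDR under 0.05 (2-sided, over all genes of a table) was the test. Deposited p-values matched the chi-square tail of the statistic with 1 degree of freedom. Whether the 6 libraries of a group come from 6 mice is read from their animal numbers alone. The tissue difference took both tissues as uncorrelated and was tested on simulated data, as was the recentring. Python 3.11.15, pandas 2.3.3 and scipy 1.17.1 were used. Transcript lengths, GC content and positions came from GENCODE M21 (GRCm38), by gene ID, for the transcript with the highest log2 mean CPM in the authors' transcript table.

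Genes named are every paralog pair, the members past the FDR, the highest and lowest members, and up to 3 genes of each pathway list with the smallest FDR. Stalk, 5S particle and other genes given by position, Dkc1, Fau, Rack1, Myh1, and members near a threshold were picked with their values in view. The members and lists were chosen with earlier results of these data known. Some genes that the rule names are left out of the text.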

Additional observations from a re-analysis of the deposited data

Results flagged for a closer look

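The difference between tissues passed the adjusted threshold for 4 of the genes named outside the ribosomal proteins, by the approximate test of iWAT minus liver with Benjamini-Hochberg adjustment over all genes. Among all genes, 6.73% passed for CR and 7.81% for TR. The number of named genes looked at was not counted, so no share stands beside these. These genes were named for passing the FDR against AL in liver or in iWAT, but not in both, which favours a difference between tissues. For Nap1l1 the difference was -1.27 for CR minus AL (adjusted p 0.0016) and -1.35 for TR minus AL (adjusted p 0.0023), from iWAT values of -1.39 and -1.59 and liver values of -0.13 and -0.24. For Castor1 it was -1.39 (adjusted p 0.028) and -1.89 (adjusted p 0.0049), with liver log2 mean CPM under 1. For Ddit4 it was -1.30 in CR minus AL (adjusted p 0.027), where the liver value was 1.07 and the iWAT value -0.23. For Mtor it went the other way, at 0.86 in CR minus AL (adjusted p 0.020), from 0.53 in iWAT and -0.34 in liver, and 0.83 in TR minus AL (adjusted p 0.052).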

How the results depend on the processing

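Counts of called members depended on the threshold and scaling. The medians of all 6 comparisons moved by less than a member's median SE in each setting tried, a wide margin for a median over members. In iWAT that SE was 0.36 for CR and 0.34 for TR against AL, above the medians themselves at 0.19 and 0.17. Genes outside the rule at a log2 mean CPM of 7 or more had iWAT medians of 0.13 and 0.22. Recentring on genes at that level is thus not small beside the members' iWAT medians. In liver CR minus AL (6 higher), an FDR under 0.01 left 2 and under 0.10 gave 20. Testing only genes whose log2 mean CPM was 5 or more gave 13, recentring on the median of genes at 7 or more left 2, and the most abundant transcript gave 1. In liver TR minus AL (12 higher) the same FDR thresholds gave 3 and 28, that recentring 5 and the most abundant transcript 0. In liver CR minus TR the most abundant transcript gave 1 higher. In iWAT TR minus AL, 1 member, Rpl7l1, passed at an FDR under 0.10 and in the same filter on log2 mean CPM. With a correlation of 0.3 between tissues, 2 members differed for TR. No member was lower in any of these settings. By the most abundant transcript, Mdm2 in liver CR minus AL was 0.21, on the other side of 0. The causes were not tested.

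No paired analysis was possible because the tables hold fitted comparisons and no values per library, though liver and iWAT libraries share animal numbers. For the same reason leaving out libraries was not run. Depth is unknown, and the approximate SE limits iWAT most.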
